A study of Chlamydomonas reinhardtii with 8 samples.

Results

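*ATS2*, *SIR1*, *OASTL1* and *SUOX1* are 4 genes of sulfur assimilation in the green alga *Chlamydomonas reinhardtii*. They were chosen by the identifiers of their JGI transcript models, out of 14557 models on the array. Each model has 3 probes, so that 12 of 43705 transcript probes belong to them. In the numbering of the array, *ATS2* was read by model 133924's probes, *SIR1* by model 206159's, *OASTL1* by model 175651's and *SUOX1* by model 59800's. The rule goes by these identifiers and not by a value of the arrays described here, but the genes stand in a list of sulfur-starvation responses that was measured in the same study. In that list, averaged over several starvation times, *ATS2*, *SIR1* and *SUOX1* are more than 2-fold higher and *OASTL1* more than 2-fold lower under starvation. The array is a 2-colour Agilent design, on which RNA of one sample is labeled with the red dye Cy5 and RNA of another with the green dye Cy3, and both bind to the same spots.

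In the replication experiment, 6 arrays named rep1 to rep6 compared RNA of sulfur-starved cells in Cy5 with RNA of T0 cells in Cy3, which were harvested before starvation at early stationary phase. All cells were of the wild type cc3491, grown in TAP, an acetate medium, and moved to TAP without sulfur under constant light for starvation. The starvation time is 24 h in all sample titles, but 24, 48, 72, 96, 24 and 48 h in the channel descriptions of rep1 to rep6, so the arrays were taken as starved against T0 without a time. Another 2 arrays, label1 and label2, carry RNA of the wild type cc125 that is labelled as 24 h of sulfur starvation in both channels. The starved RNA was in Cy5 on each of the 6 arrays, and starvation cannot be told apart from a preference of a probe for one dye. The paper speaks of biological and of technical replicates without saying which arrays are which. The spread between arrays may therefore be technical in part, and p-values are then too small.

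Before any result, 3 arrays stand apart. On rep1 and rep2 only 4.99% and 5.64% of the probes were well above background in at least 1 channel, against 38.5% to 56.0% on rep3 to rep6, and their log2 ratios had a correlation of -0.000315 to 0.0347 with those of rep3 to rep6 across the tested probes, which are not independent replicates. None of the 12 probes of the 4 genes was well above background on rep1 or rep2, and the comparison below rests on rep3 to rep6. Array label2 went against its label. Of 18 probes of *ARS1*, *ARS2*, *ECP76*, *ECP88*, *SLT1* and *LHCBM9*, genes known to be induced by sulfur starvation in this alga, 17 were at least 2-fold brighter in Cy5 than in Cy3 on label2. On label1 this held for 0 of the 17 probes that were well above background there. On rep3 to rep6 only 4 of these 18 probes were bright enough to be tested, 3 of *SLT1* and 1 of *LHCBM9*, with mean log2 ratios of 1.74 to 2.75. The probes of *ARS1* and *ECP88* were well above background on 0 of these arrays in either channel, and *ARS2* probe 1 on 1. *ECP76* probe 1 had log2 ratios of 4.45 and 3.66 on rep3 and rep4 but 0.13 and 0.46 on rep5 and rep6. Why these known starvation genes gave so little signal was not tested.

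As background, algae take up sulfur as sulfate. ATP sulfurylase, the enzyme *ATS2* is named for, activates sulfate with ATP, the product is reduced to sulfite, and sulfite reductase, here the ferredoxin-dependent *SIR1*, reduces sulfite to sulfide in the chloroplast. *OASTL1* stands for *O*-acetylserine(thiol)lyase, which joins sulfide to *O*-acetylserine and so makes cysteine. *SUOX1* stands for sulfite oxidase, which turns sulfite back into sulfate. By their identifiers, kept as old locus names in NCBI's v5.5 annotation, the 4 models are the loci CHLRE_02g107450v5 for *ATS2*, CHLRE_07g351300v5 for *SIR1*, CHLRE_08g367600v5 for *OASTL1* and CHLRE_04g217929v5 for *SUOX1*. The array was designed on an older assembly, so no coordinates are given.

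In starved cells the mean transcript level of all 4 enzymes lay within 2-fold of T0 cells on every probe that could be tested. This differs from the list of the study, which averages several starvation times and gives all 4 beyond 2-fold. The cause of the difference was not tested. The test took probes with a signal well above background, in either channel, on 3 or 4 of the arrays, and 9 of the 12 probes and 18241 of all probes fulfilled this. By the rule of the study, a Holm adjusted p under 0.05 in limma and a change of at least 2-fold, 0 of the 9 probes were called, against 1.16% of all tested probes. With Benjamini-Hochberg adjustment and the same 2-fold limit the number was also 0, against 8.99% of all probes. Without a limit on size, Benjamini-Hochberg adjustment called 3 of the 9 probes, all higher in starved cells, namely *SIR1* probe 3, *OASTL1* probe 3 and *SUOX1* probe 1, and 0 lower, against 45.7% of all probes, 21.9% called higher and 23.7% called lower. These 3 calls depended on the processing. Under alternative settings *SIR1* probe 3 passed in 10 of 18, *OASTL1* probe 3 in 12 of 17 and *SUOX1* probe 1 in 11 of 18. At an unadjusted p under 0.05 the number was 5 of 9, against 54.2%. The 95% interval of the mean lay within a 2-fold change in either direction for 9 of 9 probes, against 73.6% of all, a count that was added after the values had been seen. The median log2 ratio of starved over T0 was -0.13 over the 9 probes and -0.02 over all tested probes, and the median SD between arrays was 0.207 and 0.220. With 4 arrays, an exact permutation test of the signs for a single probe cannot go below a two-sided p of 0.125. The limma test that was used takes each probe by itself, with a variance moderated by that of all tested probes.

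**Figure D1:**
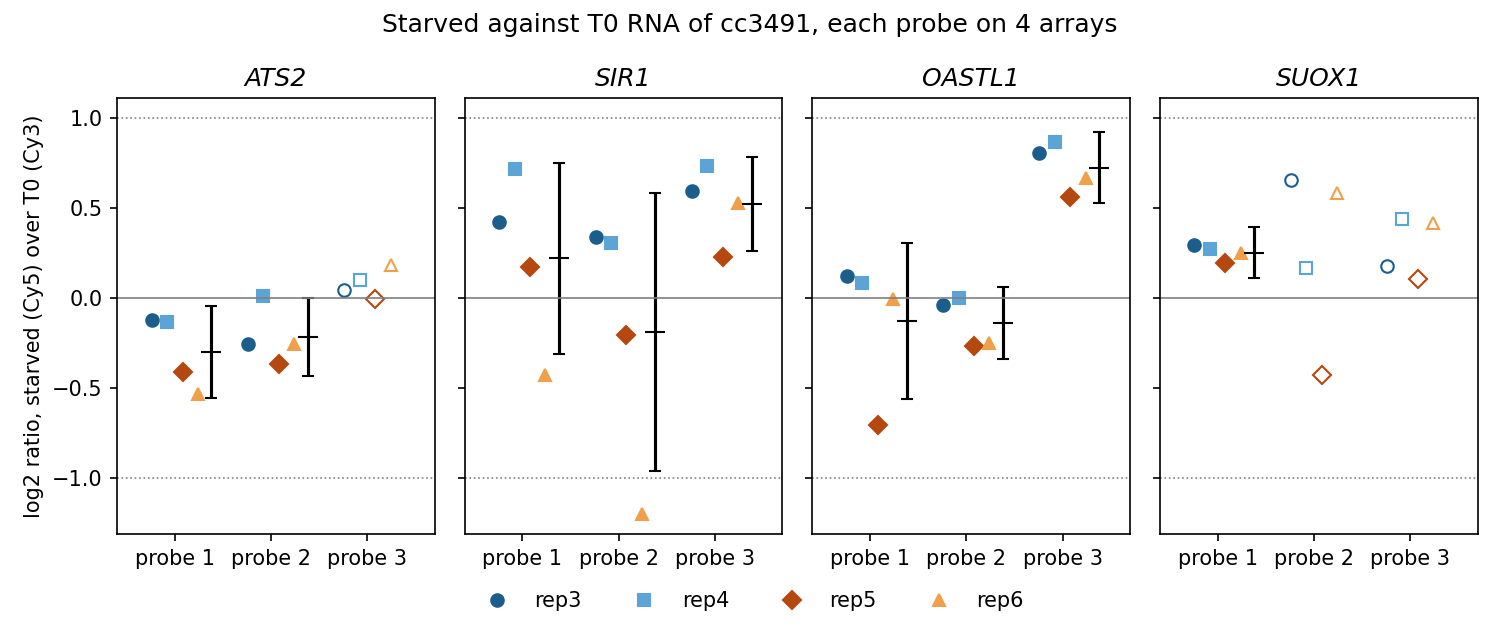
Log2 ratio of starved (Cy5) over T0 (Cy3) RNA for each of the 12 probes on rep3, rep4, rep5 and rep6, with 1 point per array and, for tested probes, the mean with its 95% interval; open points mark the 3 probes that were too dim to test and dotted lines a 2-fold change. *SIR1* probe 3, *OASTL1* probe 3 and *SUOX1* probe 1 lie above 0 on all 4 arrays, *ATS2* probe 1 lies below 0 on all 4, and probes 1 and 2 of *SIR1* spread to both sides of 0.

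*ATS2*, which opens the pathway, had mean log2 ratios below 0 on the 2 probes that could be tested, and neither passed the test after adjustment in the main setting, though each passed Benjamini-Hochberg adjustment in 3 of 18 alternatives. The Cy5 signals of probe 1 in starved cells were 3087, 3415, 1177 and 1047 on rep3, rep4, rep5 and rep6, against Cy3 signals of 3427, 3840, 1592 and 1545 in T0 cells. Starved cells thus gave the lower signal on all 4 arrays, and the gap was wider on rep5 and rep6. After normalization the log2 ratios were -0.12, -0.13, -0.41 and -0.53, with a mean of -0.30 ± 0.21 (SD, n = 4 arrays), a level of 0.812-fold with a 95% interval of 0.680 to 0.971. The limma p adjusted by Benjamini-Hochberg was 0.0628. With the ratio of label1 subtracted from each array, to allow for a dye effect, the mean was -0.76 with a 95% interval of -1.02 to -0.50 (limma adjusted p = 0.00412). The subtracted label1 value was a single one, from cc125, and its error is not part of that interval or p. It was 0.46 in the main setting and 0.075 with normexp background correction. With normexp and no subtraction, the mean of probe 1 was -0.065 (limma adjusted p = 0.451). Probe 2 gave log2 ratios of -0.25, 0.01, -0.37 and -0.26 and a mean of -0.22 ± 0.16 (limma adjusted p = 0.0904). It was thus below 0 on 3 of 4 arrays, and with normexp its mean was -0.38 (limma adjusted p = 0.0335). Probe 3 was not well above background in either channel on any of the 4 arrays. Its signals of 4.44 to 11.2 in starved cells and 4.81 to 8.19 in T0 cells say nothing about the transcript.

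For *SIR1*, the sulfite reductase, only probe 3 was well above background in both channels on all 4 arrays. Probes 1 and 2 scattered to both sides of 0. The authors set aside probes of an earlier array design in their starvation data, in part because many could cross-hybridise. Whether probe 3 is such a probe, and whether its signal came from *SIR1* alone, was not tested. On probe 3 the Cy5 signals in starved cells were 1068, 1310, 426 and 439, against Cy3 signals of 728, 817, 373 and 314 in T0 cells. Starved cells gave the higher signal on every one of the 4 arrays. The log2 ratios of 0.60, 0.73, 0.23 and 0.53 had a mean of 0.52 ± 0.21 (SD, n = 4 arrays), which is 1.44-fold with a 95% interval of 1.20 to 1.72. The limma p was 0.0140 after Benjamini-Hochberg adjustment and 1 after Holm adjustment. Probes 1 and 2 were near background. In Cy5 they were well above background on rep3 and rep4 but not on rep5 and rep6, whereas in Cy3 they were above background on all 4 arrays. On rep3 and rep4 their log2 ratios were 0.42 and 0.71 for probe 1 and 0.34 and 0.30 for probe 2, above 0 as for probe 3. On rep5 and rep6 they were 0.17 and -0.43 for probe 1 and -0.20 and -1.20 for probe 2. Over 4 arrays the means were 0.22 ± 0.48 for probe 1 and -0.19 ± 0.72 for probe 2 (limma adjusted p = 0.417 and 0.629). The 95% interval of probe 2 ran from -0.96 to 0.58 on the log2 scale, the widest of the 9.

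**Figure D2:**
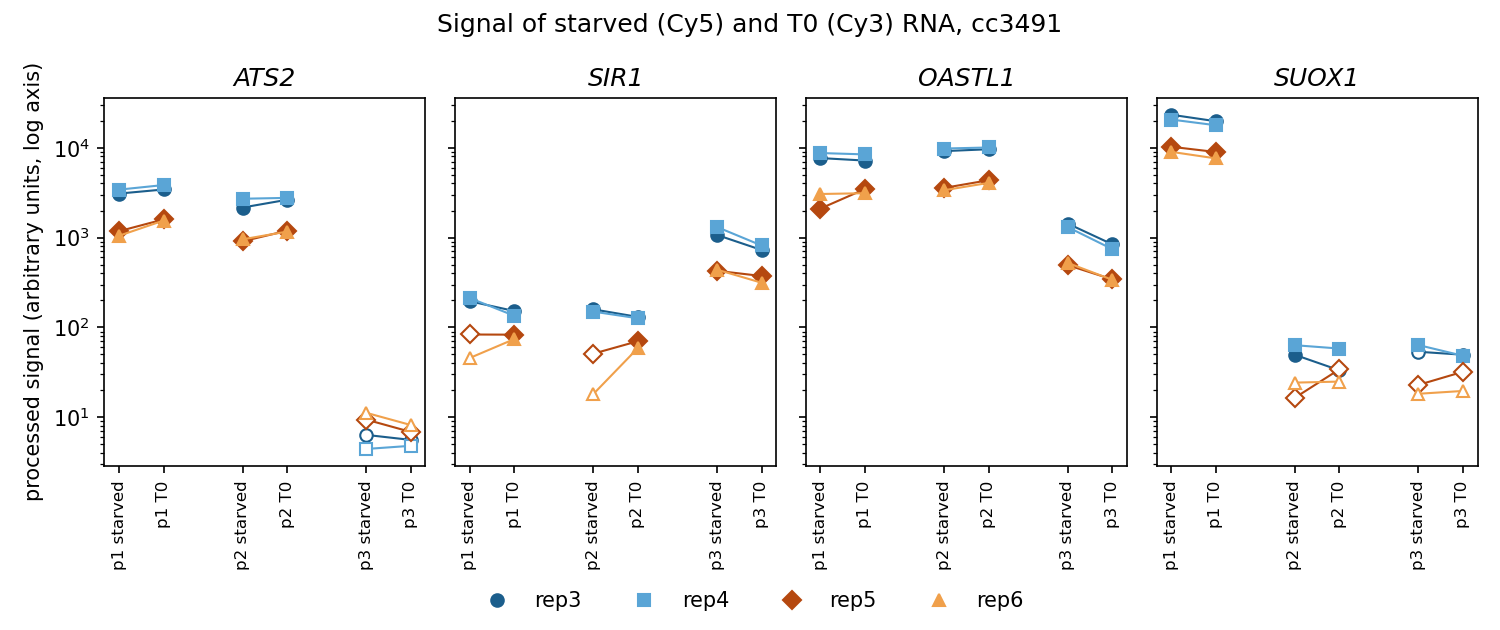
Background-corrected signal, on a log axis, of starved (Cy5) and T0 (Cy3) RNA for the 12 probes on rep3 to rep6; lines join both channels of an array, filled points are well above background and open points are not. The signals of probe 1 of *SUOX1* and of probes 1 and 2 of *OASTL1* are well above background on all 4 arrays, and those of *ATS2* probe 3 are at background on all 4.

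For *OASTL1*, the enzyme that makes cysteine, probe 3 differed in sign from probes 1 and 2. On probe 3 starved cells gave Cy5 signals of 1430, 1307, 493 and 522, against Cy3 signals of 842, 745, 343 and 339 in T0 cells. The signal was higher in starved cells on all 4 arrays. The log2 ratios of 0.80, 0.86, 0.56 and 0.67 had a mean of 0.72 ± 0.14 (SD, n = 4 arrays), or 1.65-fold with a 95% interval of 1.44 to 1.89. Its limma p was 0.00245 with Benjamini-Hochberg adjustment and 1 with Holm adjustment. This was the largest mean among the 9 probes, at the 91.1st percentile of all tested probes. Probes 1 and 2 had Cy5 signals of 2103 to 8721 and 3363 to 9794 in starved cells, against Cy3 signals of 3117 to 8425 and 4061 to 10054 in T0 cells. Their channels overlapped. The log2 ratios of probe 1 were 0.12, 0.08, -0.70 and -0.01 with a mean of -0.13 ± 0.39, and those of probe 2 were -0.04, 0.00, -0.27 and -0.25 with a mean of -0.14 ± 0.14 (limma adjusted p = 0.566 and 0.198). The value of -0.70 on rep5 stands apart from the other 3 of probe 1. The interval of probe 3, from 0.53 to 0.92 on the log2 scale, lay above those of probes 1 and 2, which ended at 0.31 and 0.06, and the difference between the probes was not tested. By the study's text, sequences of an earlier array design were put on the array as the third probe. The authors set such probes aside in their starvation data, because they gave lower log2 ratios in responding genes and many could cross-hybridise. The origin of single probes was not used here, so whether this holds for probe 3 of *OASTL1* and of *SIR1* was not tested.

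*SUOX1*, the sulfite oxidase, could be tested on probe 1 alone, which had the smallest SD between arrays of the 9 probes. Probe 1 gave Cy5 signals of 23294, 20592, 10247 and 8995 in starved cells, against Cy3 signals of 19715, 17795, 8961 and 7609 in T0 cells. Both channels were dimmer on rep5 and rep6 than on rep3 and rep4, and starved cells were higher on each array. The log2 ratios were 0.30, 0.27, 0.19 and 0.25, with a mean of 0.25 ± 0.04 (SD, n = 4 arrays), which is 1.19-fold with a 95% interval of 1.08 to 1.31. The limma p was 0.0192 with Benjamini-Hochberg adjustment and 1 with Holm adjustment, so a difference this small passed only where no minimum size was set. Probes 2 and 3 were too dim for a test. Their log2 ratios ran from -0.43 to 0.65 and from 0.11 to 0.44, and probe 2 was above background in Cy5 on 2 and in Cy3 on 1 of the 4 arrays.

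Each of these means was taken over 2 slides, since rep3 and rep4 were assigned to one slide and rep5 and rep6 to another. The dim arrays rep1 and rep2 were assigned to the slide of rep3 and rep4. The sample titles and labelled times do not give the slide. Slide and the labelled starvation time cannot be told apart. The mean log2 ratio was higher on the slide of rep3 and rep4 for 9 of the 9 probes, which held for 60.9% of the 18225 tested probes with a value on all 4 arrays. In limma's test of the slide difference 0% of these probes were called with Benjamini-Hochberg adjustment, and 23.1% had an unadjusted p under 0.05. The adjusted p of the 9 probes ran from 0.152 to 0.662. *ATS2* probe 1 had means of -0.13 on the slide of rep3 and rep4 and -0.47 on the slide of rep5 and rep6, *OASTL1* probe 3 had 0.83 and 0.61, and *SUOX1* probe 1 had 0.28 and 0.22. With slide as a random block, the limma p adjusted by Benjamini-Hochberg was 0.0340 for *SIR1* probe 3, 0.00566 for *OASTL1* probe 3 and 0.0448 for *SUOX1* probe 1. With the arrays of each slide averaged to 1 value it was 0.0936, 0.0547 and 0.218 for these probes, and all 3 calls were lost. With normexp background correction the slide difference of *OASTL1* probe 3 was 0.51 and passed (limma adjusted p = 0.0371), the only 1 of the 9 probes to do so.

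When rep1 and rep2 were included, none of the 9 probes was called with either adjustment. The limma p adjusted by Benjamini-Hochberg was then 0.239 for *SIR1* probe 3, 0.0985 for *OASTL1* probe 3 and 0.307 for *SUOX1* probe 1, with means of 0.29, 0.48 and 0.15 over 6 arrays. On rep1 and rep2 these 3 probes had log2 ratios between -0.37 and 0.10, from signals at background.

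Some other genes of sulfur metabolism moved further in the same cells. The list holds 16 models from the tables of the study, which names sulfate transporters, arylsulfatases, cell wall proteins and enzymes of the cysteine, methionine and sulfolipid branches. The tables were drawn from samples of the same study, so the list is not independent evidence of a direction. Of its 48 probes 26, of 12 models, were tested. By the rule of the study 2 probes rose, against 0.795% of all tested probes, and 0 fell, against 0.367%. Over all probes the balance of higher and lower calls turned with the background correction, with 59 of 136 calls higher under normexp and 89 of 259 without correction, against 145 of 212 in the main setting. With Benjamini-Hochberg adjustment 7 probes of the list were at least 2-fold higher, against 4.7% of all probes, and 0 were lower, against 4.28%. Without a limit on size 22 were higher, against 21.9%, and 0 lower, against 23.7%. The median log2 ratio of the list was 0.47, beside -0.02 over all tested probes and -0.13 over the 9 probes of the assimilation enzymes.

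The 2 probes that rose were probes 1 and 2 of *CDO1*, named for cysteine dioxygenase, an enzyme that oxidises the cysteine that *O*-acetylserine(thiol)lyase makes. Their log2 ratios on rep3 to rep6 were 3.23, 3.20, 2.72 and 2.97 for probe 1 and 3.29, 3.18, 3.03 and 3.14 for probe 2. No array of either probe was near 0. The means were 3.03 ± 0.24 and 3.16 ± 0.11 (SD, n = 4 arrays; limma with Holm adjustment, adjusted p = 0.0431 and 0.00382), or 8.17-fold and 8.93-fold. With any 1 of the 4 arrays left out 0 probes of the list were called, as with the arrays of a slide averaged or with normexp or no background correction, and with slide as a random block 1 was called.

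Among the transporters, *SLT1*, a sodium/sulfate co-transporter, had mean log2 ratios of 1.95, 2.29 and 2.75 on its 3 probes. All 3 passed with Benjamini-Hochberg adjustment and at least 2-fold, and none with Holm adjustment. *SLT2* probe 1 passed in the same way with 1.14, but its probe 3 had a mean of 0.44, below 2-fold, and its probe 2 was too dim to test. *SLT3* probe 2 passed with 1.94, whereas *SLT3* probe 1 had a mean of 0.93 and probe 3 of -0.06.

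The other models of the cysteine branch stayed closer to the assimilation enzymes. The study gives the name *OASTL4* to a pair of models, which lie at the loci CHLRE_07g329500v5 and CHLRE_16g685550v5. Their tested probes had mean log2 ratios of 0.47 and 0.47 at CHLRE_07g329500v5 and of 0.49 and 0.41 at CHLRE_16g685550v5, all 4 higher in starved cells with Benjamini-Hochberg adjustment and none by 2-fold. The 3 probes of *OASTL1*, another gene named for this activity, had means of -0.13, -0.14 and 0.72 on the same arrays, on both sides of those of *OASTL4*.

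**Figure D3:**
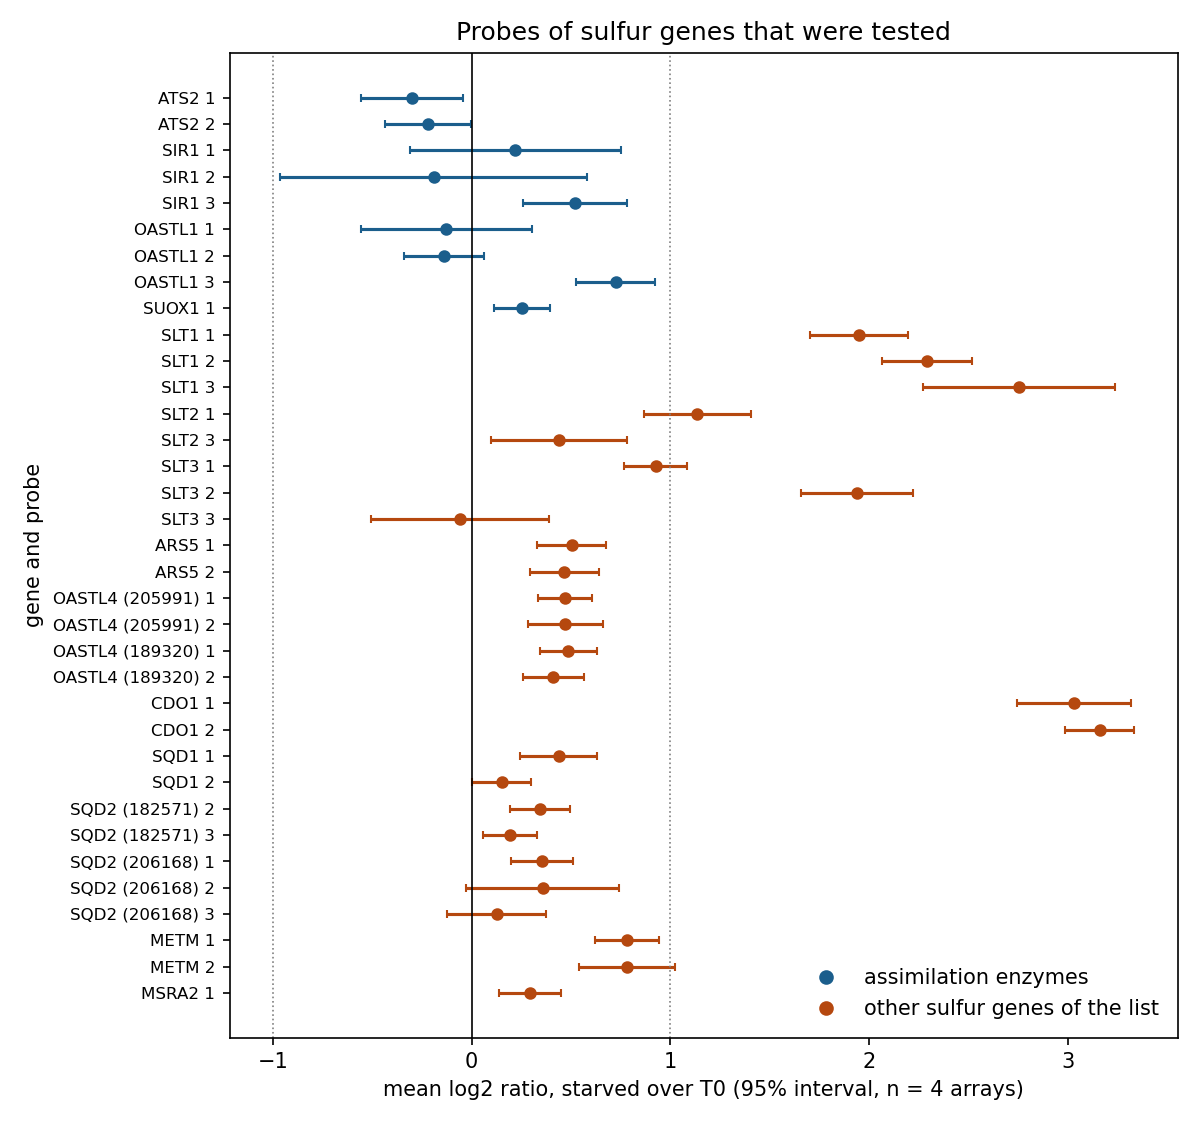
Mean log2 ratio of starved over T0 cells with its 95% interval (n = 4 arrays) for the 9 tested probes of the assimilation enzymes and the 26 tested probes of the other sulfur genes; dotted lines mark a 2-fold change. Intervals of the assimilation enzymes stay between the dotted lines, while *CDO1* probes 1 and 2 sit near 3 and the *SLT1* probes between 1.95 and 2.75.

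On label2 the 4 enzymes gave ratios beyond 2-fold on 9 of their 12 probes, and the direction split by gene. Of the 12 probes, 6 were at least 2-fold brighter in Cy5, where 8.68% of all probes well above background on that array were, and 3 were at least 2-fold dimmer, where 12.2% were. The 6 were 2 probes of *ATS2*, 3 of *SIR1* and 1 of *SUOX1*, and the 3 were those of *OASTL1*. By sign, this split is that of the study's list under starvation, from which the 4 genes were chosen. The counts are therefore not independent evidence of a direction, and why label2 gave this split was not tested. On label1 0 of the 10 probes with a value lay beyond 2-fold in either direction, against 0.482% of all. Each array gives 1 value per probe, so no error between replicates and no test can be given, and the ratios stand for Cy5 over Cy3 without a condition, since the labels give the same condition in both channels.

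*ATS2* probe 1 had a signal of 155477 in Cy5 and 7366 in Cy3 on label2, against 2897 in Cy5 and 2112 in Cy3 on label1. The difference on label2 was 20.7-fold after normalization, at the 99.9th percentile of the probes of that array, and the log2 ratio was 4.37 on label2 and 0.46 on label1. Probe 2 was 13.8-fold brighter in Cy5 on label2, with log2 ratios of 3.79 on label2 and 0.01 on label1. Probe 3 of this gene had 0.89 on label2 and -0.03 on label1, with signals of 243 in Cy5 and 127 in Cy3 on label2.

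All 3 probes of *SIR1* were brighter in Cy5 on label2, by 10.7-fold, 9.58-fold and 14.1-fold. Their log2 ratios were 3.42, 3.26 and 3.82 on label2 and -0.08, 0.21 and 0.15 on label1. All 3 probes of *SIR1* were well above background in both channels on this array, and they gave the same sign, unlike on rep3 to rep6.

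*SUOX1* probe 1 was 5.18-fold brighter in Cy5 on label2, with signals of 140572 in Cy5 and 27858 in Cy3, and gave log2 ratios of 2.37 on label2 and -0.01 on label1. Probes 2 and 3 were well above background on both arrays but gave 0.20 and 0.25 on label2 and 0.32 and 0.24 on label1. On label2 only probe 1 of *SUOX1* thus lay beyond 2-fold.

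*OASTL1* was the gene with the opposite sign. Its 3 probes were 5.12-fold, 4.36-fold and 2.40-fold dimmer in Cy5 on label2, with log2 ratios of -2.36, -2.12 and -1.26. Probe 1 had signals of 14536 in Cy5 and 72798 in Cy3 on label2, against 31460 in Cy5 and 32657 in Cy3 on label1, where its log2 ratio was 0.05. The label1 spots of probes 2 and 3 were marked by the software and left out, and would have given 0.32 and -0.26. Probe 3, above 0 on all of rep3 to rep6, was below 0 on label2 like the other probes of the gene.

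**Figure D4:**
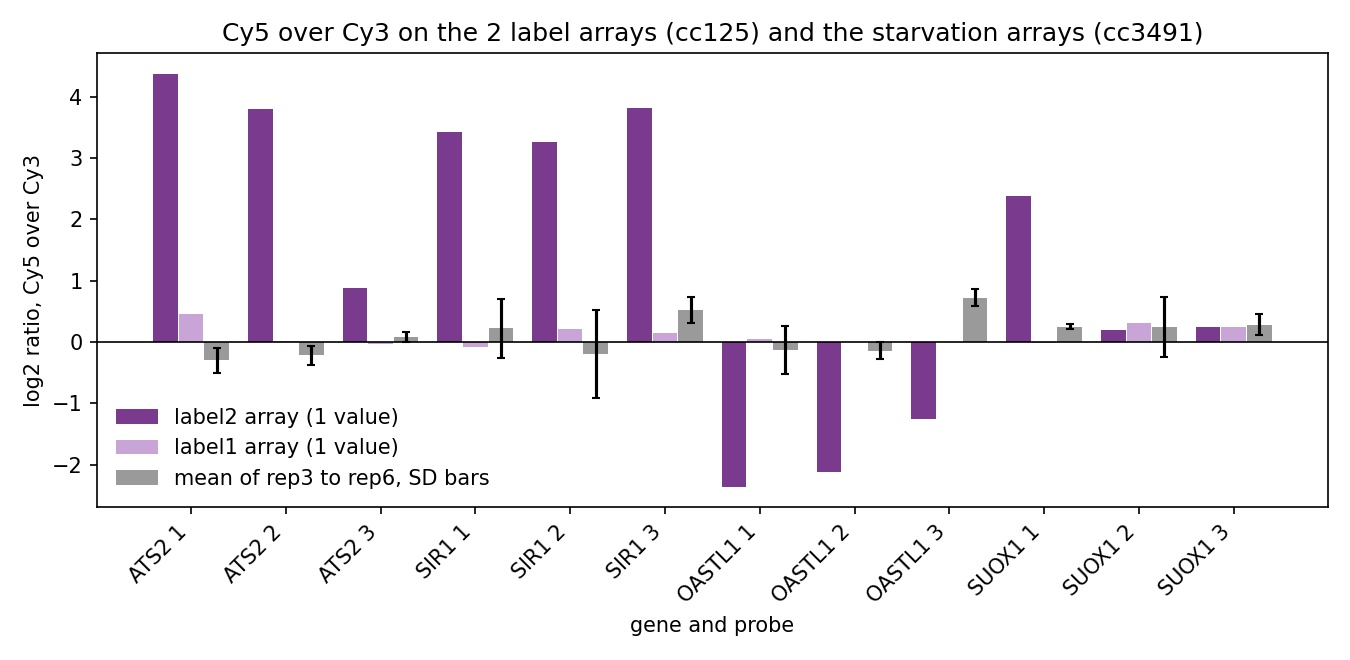
Log2 ratio of Cy5 over Cy3 for the 12 probes on label2, on label1 and as the mean of rep3 to rep6, whose bars show the SD of 4 arrays; bars of label1 for *OASTL1* probes 2 and 3 are missing because the spots were left out. On label2 *ATS2* probe 1 reaches 4.37 and *OASTL1* probe 1 falls to -2.36, and no bar of label1 goes beyond 0.46.

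Of the 48 probes of the other sulfur genes, 36 were at least 2-fold brighter and 3 at least 2-fold dimmer in Cy5 on label2, against 8.68% and 12.2% of all probes on that array. The 3 dimmer ones were those of *SLT3*, with log2 ratios of -4.69, -5.22 and -2.76. *CDO1* and *SLT1*, which were high in starved cells on rep3 to rep6, had ratios of 2.46 to 4.69 and of 3.96 to 4.58 on label2. For *CDO1* and *SLT1* the sign was thus the same on label2 and on rep3 to rep6. For *ATS2* probes 1 and 2 the sign of the mean was opposite, as it was for *SIR1* probe 2, *OASTL1* probe 3 and *SLT3* probes 1 and 2. The sign of the mean was the same for *SIR1* probes 1 and 3, *OASTL1* probes 1 and 2, *SUOX1* probe 1 and *SLT3* probe 3.

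The models with the pattern most like that of *ATS2* over rep3 to rep6, label1 and label2 were sought among 4098 models with probes 1 and 2 tested and with a value on all 6 arrays, by the root mean square difference of the log2 ratio averaged over both probes. They were model 137142, at CHLRE_03g192050v5, with 0.125, model 144472 with 0.136 and model 205942, named *CGL73*, with 0.214. For *SIR1* they were models 196236 with 0.310, 196074, named for an AAA-ATPase domain in the study, with 0.328, and 194201 with 0.335. *OASTL1* and *SUOX1* could not be included, because of a marked spot of *OASTL1* probe 2 on label1 and because *SUOX1* probe 2 was not tested. The same search over rep3 to rep6 without the label arrays gave none of these models, and the search by probe 1 alone gave 1 of them.

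**Figure D5:**
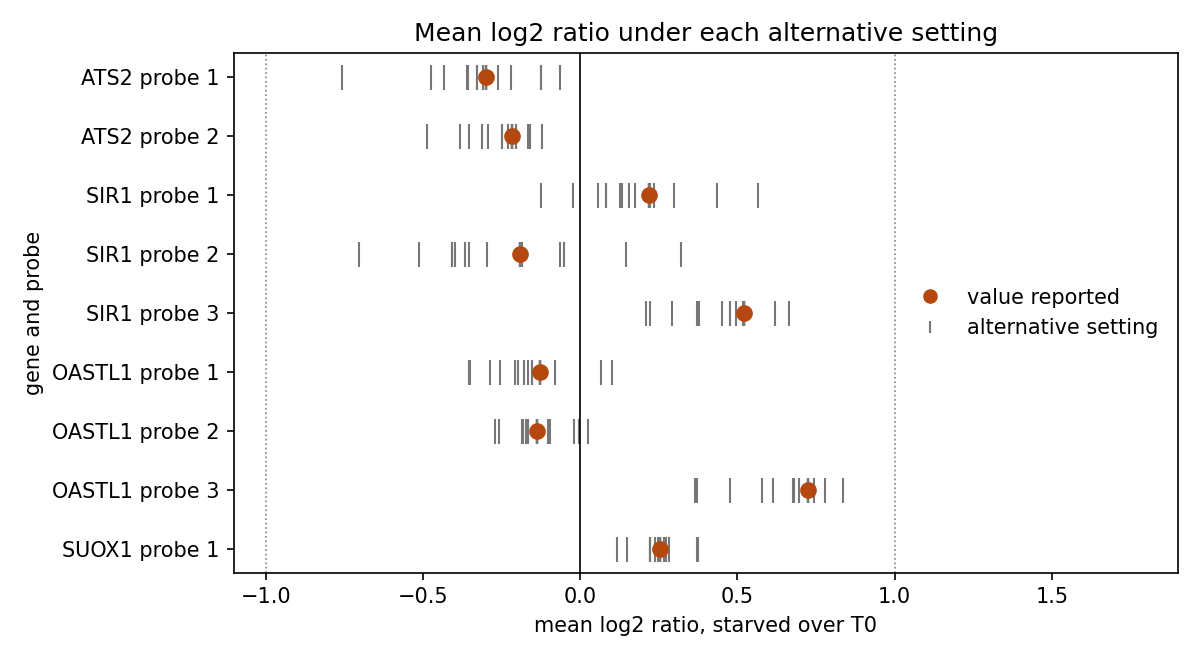
Mean log2 ratio of starved over T0 cells for the 9 tested probes as reported (points) and under each alternative setting of the processing (ticks), with dotted lines at a 2-fold change. The ticks run from -0.76 to 0.83 and none reaches a 2-fold change, and those of *SIR1* probes 1 and 2 and *OASTL1* probes 1 and 2 fall on both sides of 0.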

How the data were processed

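The members and gene lists were chosen with earlier results of these data known. For each spot the authors deposited the intensity in both channels, corrected by Feature Extraction 10.7.3.1 for background, trends across the array and dye, with a substitute for values not significantly above background. The deposited files also hold uncorrected median intensities, log10 ratios of Cy5 over Cy3 and other columns, marks of 0 or 1 per spot. The deposited value table equals these log10 ratios.

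Uneven and outlier spots (0.0114% to 3.58% per array) were left out, saturated spots kept and repeated spots averaged. Loess normalization of the log2 ratios of corrected intensities, array by array, used limma 3.58.1 under R 4.3.3. The mean of arrays with at least 10% of probes well above background, rep3 to rep6, was tested against 0 with Holm adjustment, as in the methods of the study. Probes of a model were kept apart. Named were the 12 probes of the 4 genes and, from the pathway list, the cysteine branch and every called model. Of 38 further symbols 0 were found in the NCBI table. *SLT1*, *SLT2* and *SLT3* were named beyond this rule, after their values were seen. The number of arrays, signals near background and 1 value per label array limit the precision. The test was checked on simulated data. Alternatives for arrays, background, normalization, filter, adjustment, slide, dye and marked spots are given in the closing section. No probe sequences were used here. Figures were drawn with matplotlib 3.10.9.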

Additional observations from a re-analysis of the deposited data

Results flagged for a closer look

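On *OASTL1* probe 1, rep5 stood apart from the other 3 arrays. Its log2 ratio of starved over T0 was -0.70, against 0.12, 0.08 and -0.01 on rep3, rep4 and rep6, and the gap to the nearest of them took up 0.846 of the whole range. Of 14 sets of 4 values examined in this way this was the only one beyond the limit, and chance alone gives about 1 in 20.

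The 2 slides gave opposite signs for *SIR1* probe 2 and *OASTL1* probe 1. *SIR1* probe 2 had log2 ratios of 0.34 and 0.30 on rep3 and rep4 and of -0.20 and -1.20 on rep5 and rep6, so that the slide means differed by 1.02. Its starved signal was not well above background on rep5 and rep6, and the part of this in the difference was not tested. *OASTL1* probe 1 had 0.12 and 0.08 on rep3 and rep4 and -0.70 and -0.01 on rep5 and rep6, a difference of 0.457. In limma's test of the slide difference neither passed (Benjamini-Hochberg adjusted p = 0.259 for *SIR1* probe 2 and 0.416 for *OASTL1* probe 1).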

How the results depend on the processing

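Between starved and T0 cells no probe of the 4 enzymes was called under any alternative at its own threshold, except the 3 named above when Benjamini-Hochberg adjustment was used without a minimum fold. Over all probes the 212 calls became 6 with all 6 arrays, 8 to 16 with 1 array left out, 136 with normexp background correction, 138 with median centring, 58 without a filter on dim probes, 544 with both channels above background on all 4 arrays, 1639 with Benjamini-Hochberg adjustment, 8330 when it had no minimum fold, 107 with slide as a random block, and 0 with the arrays of a slide averaged or with the arrays of either slide alone. The 2 calls of the pathway list became 0 with all 6 arrays, with any 1 array left out, with normexp or no background correction, and with slides averaged or alone. They became 1 with median centring, no normalization, the value table, no filter, slide as a random block, label1 subtracted, or eBayes with trend and robust, and 7 with Benjamini-Hochberg adjustment and 22 when it had no minimum fold. The 0 calls between slides became 1850 with normexp, with *OASTL1* probe 3 among them, and 471 with median centring. The 9 of 9 probes with a 95% interval within 2-fold became 5 of 7 with label1 subtracted, where *OASTL1* probes 2 and 3 have no value, 8 of 9 with any 1 array left out, median centring, no normalization, the value table or slide as a random block, and 7 of 9 with slides averaged or rep5 and rep6 alone. Means changed sign for *OASTL1* probe 1 (-0.21 to 0.066 with 1 array left out, above 0 without replicate 5, and 0.10 on rep3 and rep4 alone), *SIR1* probe 2 (-0.37 to 0.15 with 1 array left out, above 0 without replicate 6, and 0.32 on rep3 and rep4 alone), *OASTL1* probe 2 (0.026 with normexp) and *SIR1* probe 1 (-0.023 with median centring, -0.13 on rep5 and rep6 alone). None of these 4 probes had been called, and the cause was not tested. These are 7 of 115 means under the 13 settings that can move a mean. No paired analysis was possible because each array already holds both conditions and no 2 groups share replicate numbers of the same samples. Settings for single slides, no minimum fold with Benjamini-Hochberg adjustment and the count of intervals were added after seeing the data.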
